A study of Mus musculus with 6 samples.

Results

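Zinc, copper and manganese handling was examined as 10 genes: the metallothioneins Mt1 and Mt2, the zinc exporter Slc30a1, the importers Slc39a4 and Slc39a5 of zinc and Slc39a8 and Slc39a14 of zinc and manganese, the copper importer Slc31a1, the copper pump Atp7b, and the copper oxidase ceruloplasmin, Cp. They were taken by gene symbol from the deposited count tables, in which all 10 were present among 24422 genes, and all 10 passed the filter for low counts among 15145 tested genes. The 3 control kidneys came from wild type C57BL/6 pups whose dams ate a diet with 220 ppm iron, and the 3 iron deficiency (FeD) kidneys from wild type C57BL/6 pups whose dams received synthetic chow holding 2 to 6 ppm of iron. Every pup was at postnatal day 15, and the dams were 8 weeks old at the start of the diets, which, per the labels, began 1 month before mating and continued through nursing. The paper gives a shorter time on the diets before mating. The pups received the low iron through the dam, neither the labels nor the paper gave the number of litters, and whole kidneys were sequenced. Differences between litters therefore cannot be told apart from the diet, and P values measure the spread between these kidneys.

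Zinc, copper, manganese and iron share several carriers. ZIP importers (Slc39) bring zinc into the cytosol, ZnT exporters (Slc30) remove it to the outside or into vesicles, and metallothioneins hold zinc and copper on their cysteines. ZIP8 (Slc39a8) and ZIP14 (Slc39a14) also carry manganese and nontransferrin bound iron. CTR1 (Slc31a1) brings copper into cells, the ATPases Atp7a and Atp7b load copper enzymes and export copper, and ceruloplasmin is a ferroxidase that needs copper to oxidize iron for transferrin.

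Raw counts on genes totalled 13732173 to 20853293 per kidney, and 3 counts, the smallest signal considered, stood at 0.144 to 0.218 CPM (counting error only). Values below are counts normalized by edgeR's TMM method to the mean library size. The diets were compared by the quasi-likelihood test of edgeR, with Benjamini-Hochberg adjustment across all tested genes and the log2 fold change, log2 FC, given as FeD over control. A gene is said to have risen or fallen where its adjusted P was under 0.05. Markers of podocytes, thick ascending limb and collecting duct had at least 292 raw counts each in every library. Some tubule markers were scarce in FeD kidneys. Slc5a2 of the proximal tubule had 5908 to 7485 raw counts in control and 153 to 316 in FeD kidneys. Pvalb of the distal convoluted tubule had 296 to 452 and 4 to 17. Of 4 collecting duct markers, Aqp2, Aqp3 and Scnn1g rose and Atp6v1b1 fell. Their sums were 19758 to 28522 normalized counts in control and 31221 to 51776.5 in FeD kidneys. The part of collecting duct cells in the genes that rose was not tested. FeD kidney 2 stood apart by markers of adrenal cortex, whose 5 genes summed to 13851 normalized counts against 140 to 1283 in the other 5 kidneys, and the steroid 11-beta-hydroxylase gene Cyp11b1 had 2372 against at most 5.18. Control kidney 1 had the next highest sum, with 989 normalized counts of Hsd3b1. Results that rest on these kidneys are given without them where the call changes. Of the 6 erythroid markers, the 4 globin genes were listed at 0 in every kidney.

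**Figure D1:**
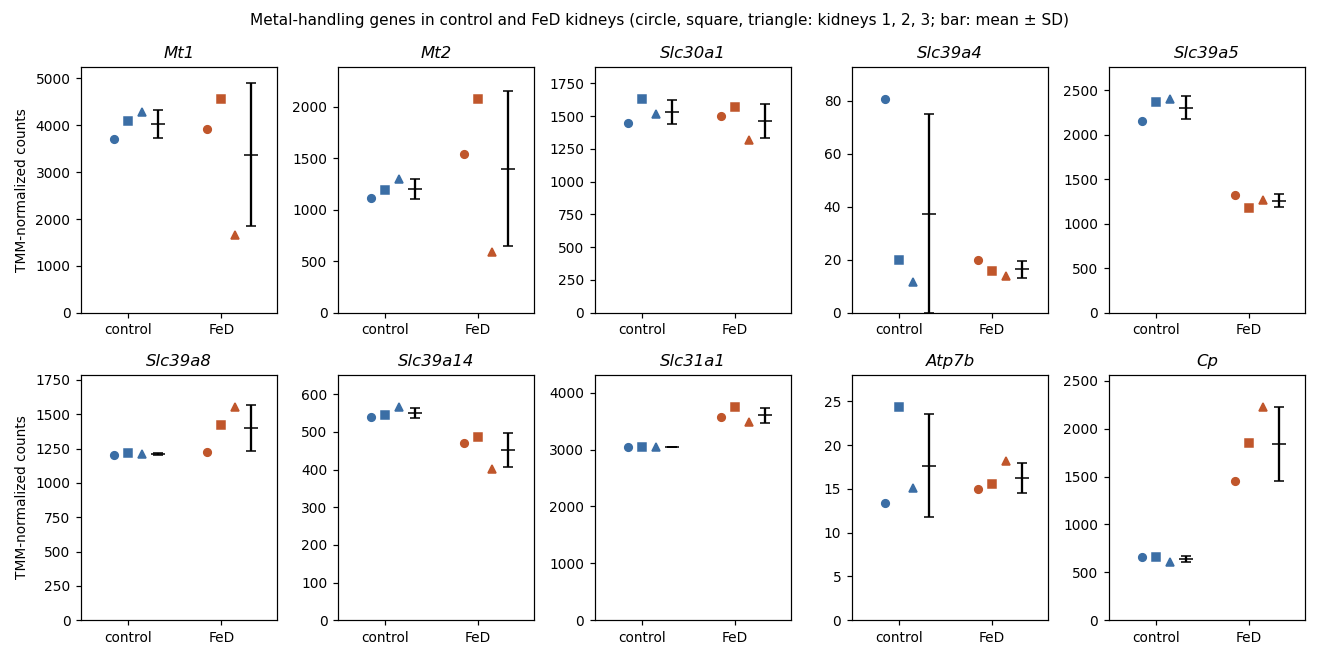
TMM-normalized counts of each metal-handling gene in 3 control (blue) and 3 FeD (orange) kidneys, with the mean and SD of each group as black bars and the vertical axis of each panel starting at 0. Cp was 1451 or more in every FeD kidney and at most 660 in every control kidney, whereas Mt1 and Mt2 were low in FeD kidney 3 alone.

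Cp rose, Slc31a1 rose slightly, and Slc39a5 and Slc39a14 fell in FeD kidneys, while the other 6 genes did not pass. Thus 2 of 10 genes were higher, where 22.4% of all tested genes were higher, and 2 were lower, where 23.3% of all tested genes were lower. A change of at least 2-fold with an adjusted P under 0.05 was reached by 1 gene, Cp; among all tested genes 4.34% were higher and 5.69% lower at this threshold. None of the 10 was at least 2-fold lower with a P under 0.05 in edgeR, adjusted or not, or with an adjusted P under 0.05 in DESeq2. Slc39a4 had a log2 FC of -1.18 but did not pass (edgeR unadjusted P = 0.117). FeD and control kidneys did not overlap for 5 of the 10 genes, against 58.1% of all tested genes. The median log2 FC was -0.08 over the 10 genes and -0.00177 over all tested genes. The shares called at any fold were near those of the whole table.

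Levels were compared between genes as CPM per kilobase of annotated exon, with exon length taken as the union of annotated transcripts. In control kidneys the metallothioneins led, with 299 ± 21.7 for Mt1 and 121 ± 9.58 for Mt2 (SD, n = 3). Slc39a5 followed with 60.2 ± 3.39, Slc31a1 with 39.8 ± 0.0900, Slc30a1 with 16.3 ± 0.961 and Slc39a8 with 8.84 ± 0.0584. Cp, at 3.75 ± 0.178, stood above Slc39a14, at 2.92 ± 0.0745. Slc39a4 had 0.922 ± 0.929 and Atp7b 0.152 ± 0.0506. No neighbours in this order overlapped between kidneys on the per-length scale. In FeD kidneys the order changed at 2 places: Slc31a1 (47.1 ± 1.72) stood above Slc39a5 (32.8 ± 1.90), and Cp (10.8 ± 2.27) reached the level of Slc39a8 (10.2 ± 1.21), with overlapping kidneys. The ranges of Mt1 and Mt2 also overlapped in FeD kidneys.

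**Figure D2:**
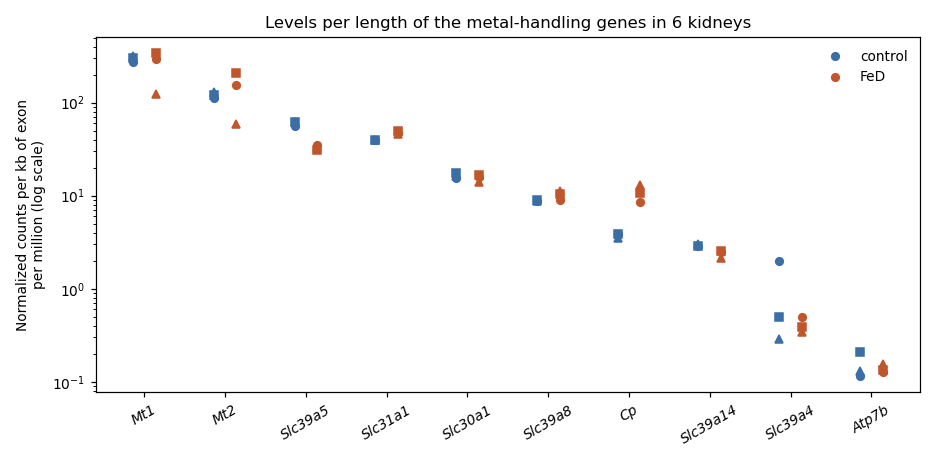
Level per length of each gene (TMM-normalized CPM per kilobase of exon, log axis) in control (blue) and FeD (orange) kidneys, 1 point per kidney. The genes span from 0.152 (Atp7b) to 299 (Mt1) as control means, and Slc31a1 and Slc39a5 exchange places in FeD kidneys.

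Ceruloplasmin is made mainly by liver, and in other tissues also by epithelial cells and macrophages. Cp lies on the plus strand of chromosome 3 from 19857054 to 19909145 (mm9), in 22 blocks of exons, of which 1.13% of bases overlap Hps3 on the opposite strand. Control kidneys 1, 2 and 3 had 659, 660 and 606 normalized counts of Cp, and FeD kidneys 1, 2 and 3 had 1451, 1850 and 2228. Every FeD kidney was above every control kidney, and the FeD kidneys spread over a wider range. The rise from 642 ± 30.5 to 1843 ± 389 (SD, n = 3) was 2.87-fold, a log2 FC of 1.52 (SE 0.14, edgeR adjusted P = 0.000149). With FeD kidney 2 left out the log2 FC was 1.54 (edgeR adjusted P = 0.000476).

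Markers of hepatocytes and macrophages were read beside Cp. Of 8 hepatocyte markers, Ttr and Serpina1a rose, Apob and Cyp2e1 fell, and 4 did not pass; they summed to 3833 to 4290 normalized counts in control and 5982 to 7239 in FeD kidneys. Albumin, the defining transcript of hepatocytes, was near the limit of detection, with 3 to 25 raw counts in every kidney. Of 6 macrophage markers, Cd68 and C1qa rose, Csf1r fell and 3 did not pass, with sums of 2115 to 2252 in control and 1931 to 2203 in FeD kidneys. The part of the hepatocyte and macrophage genes in the rise of Cp was not tested.

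The 3 genes with the pattern most like that of Cp over the 6 kidneys, among 12932 other tested genes averaging 50 or more normalized counts, were Smek2 (Pearson's r = 0.999), Fpgt (r = 0.999) and Dtx4 (r = 0.998), on log2 normalized counts. Their log2 FCs were 0.57, 0.39 and 0.87. Since the 6 points fall into the 2 diet groups, the correlations share that difference between groups and are given as a description.

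CTR1, the product of Slc31a1, is the main copper importer of the cell surface. Slc31a1 lies on chromosome 4 from 62021761 to 62052803 (plus strand). Its control kidneys had 3054, 3041 and 3044 normalized counts, and FeD kidneys had 3578, 3751 and 3494. The spread of the control kidneys, on 2747 to 3418 raw counts, was smaller than counting error, so it understates how kidneys differ. The groups did not overlap. The rise of 1.18-fold was small, with a log2 FC of 0.24 (SE 0.06, edgeR adjusted P = 0.00899). With any 1 control kidney left out, the call passed narrowly (adjusted P = 0.0406 to 0.049, edgeR).

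Atp7b, on chromosome 8 from 23103257 to 23170777 (minus strand), exports copper from hepatocytes into bile and is the gene of Wilson disease. It had 13.4, 24.4 and 15.1 normalized counts in control kidneys and 15.0, 15.6 and 18.1 in FeD kidneys, and the groups overlapped. These values rest on 12 to 22 raw counts per kidney, so a small difference could be missed at this depth (log2 FC -0.10, SE 0.33, edgeR adjusted P = 0.826).

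The other genes of copper entry, chaperones and export, 9 in number, split in direction: 2 rose, 4 fell and 3 did not pass. Over all tested genes 22.4% rose and 23.3% fell. Atp7a, the copper pump of most tissues outside the liver, had 1129, 1077 and 1029 normalized counts in control kidneys and 1600, 1796 and 2260 in FeD kidneys, without overlap (log2 FC 0.81, SE 0.12, edgeR adjusted P = 0.00113). Atp7a thus rose where Atp7b was hardly detected. The metalloreductases of the STEAP family, which reduce iron and copper, moved in both directions. Steap3, which reduces iron in transferrin endosomes, fell from 413 ± 10.4 to 178 ± 0.456 normalized counts (log2 FC -1.22, edgeR adjusted P = 5.02e-05). Its spread in FeD kidneys, on 137 to 206 raw counts, was smaller than counting error. Steap2 fell with a log2 FC of -0.57. Steap4 rose from 179 ± 22.8 to 395 ± 57.1 (log2 FC 1.14, edgeR adjusted P = 0.000537). Ccs, the chaperone that hands copper to superoxide dismutase 1, fell with a log2 FC of -0.63, and Commd1, which takes part in copper export, with -0.44. The chaperone Atox1, at -0.19 (edgeR adjusted P = 0.12), Slc31a2, at -0.02, and Cutc, at 0.24, did not pass.

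Mitochondrial copper delivery is the supply of copper to cytochrome c oxidase. Of its 8 tested genes 5 fell, where 23.3% of all tested genes fell, 1 rose and 2 did not pass, with a median log2 FC of -0.42 against -0.00177 over all tested genes. All 7 markers of the proximal tubule fell as well, and their summed level was 134797 to 144254 normalized counts in control and 53431 to 57099 in FeD kidneys. Slc34a1 held the most of these counts in control kidneys, with 71862 ± 3278 against 15389 ± 2196 in FeD kidneys. The falls differed in size. Log2 FCs were -4.89 for Slc5a2, -2.22 for Slc34a1, -2.06 for Slc22a8 and -1.08 for Slc22a6. They were -0.48 for Lrp2 and -0.45 for both Cubn and Aqp1. The part of proximal tubule cells in the levels of the mitochondrial copper genes was not tested. Cox17, the chaperone that carries copper in the space between the mitochondrial membranes, had 804, 876 and 886 normalized counts in control kidneys and 607, 633 and 559 in FeD kidneys. The groups did not overlap (log2 FC -0.51, SE 0.08, edgeR adjusted P = 0.00177). Slc25a3, the mitochondrial phosphate carrier that also transports copper, fell from 18523 ± 830 to 13498 ± 903 normalized counts (log2 FC -0.46). Cmc2 had a log2 FC of -0.93, Cox19 of -0.44 and Coa6 of -0.40. Cmc1 rose (log2 FC 0.44), a call lost without any 1 control kidney (adjusted P = 0.0571 to 0.0679, edgeR). Cox11 and Sco1, at -0.34 and -0.23, did not pass. Sco2, also on this list, had 0 counts in every kidney and was not tested.

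The list of copper enzymes, with the clotting factors F5 and F8 included, held 11 tested genes. Of these 4 rose, where 22.4% of all tested genes rose, and none fell in edgeR. At an unadjusted P under 0.05 in edgeR, 1 of them, F5, was lower, and DESeq2 called 1 lower. Lox, a secreted enzyme that crosslinks collagen and elastin, had 1227, 1319 and 1415 normalized counts in control kidneys and 4661, 5951 and 9286 in FeD kidneys. The groups lay far apart, and FeD kidney 3 was the highest (log2 FC 2.33, SE 0.23, edgeR adjusted P = 0.000175). Its relative Loxl1 had a log2 FC of 1.02, and the amine oxidases Aoc1 and Aoc3 of 1.25 and 0.72. The ferroxidase hephaestin, Heph, a membrane relative of ceruloplasmin, had 1079 ± 64.2 and 1188 ± 127 normalized counts and did not pass (log2 FC 0.14, edgeR adjusted P = 0.249). The superoxide dismutases Sod1 and Sod3 did not pass either, with log2 FCs of -0.08 and -0.23. Loxl2, a relative of Lox, did not pass (log2 FC -0.23, edgeR adjusted P = 0.236). Of 4 stromal markers, Pdgfrb and Pdgfra rose (log2 FC 0.59 and 0.60), Col1a1 fell (log2 FC -0.81) and Acta2 did not pass. Their sums were 15177 to 17149 normalized counts in control and 13876 to 18920 in FeD kidneys, and their part in the rise of Lox was not tested. F5 passed without FeD kidney 2, Pam without FeD kidney 1, and F8, Loxl2 and Sod3 without FeD kidney 3 (each lower but Pam).

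**Figure D3:**
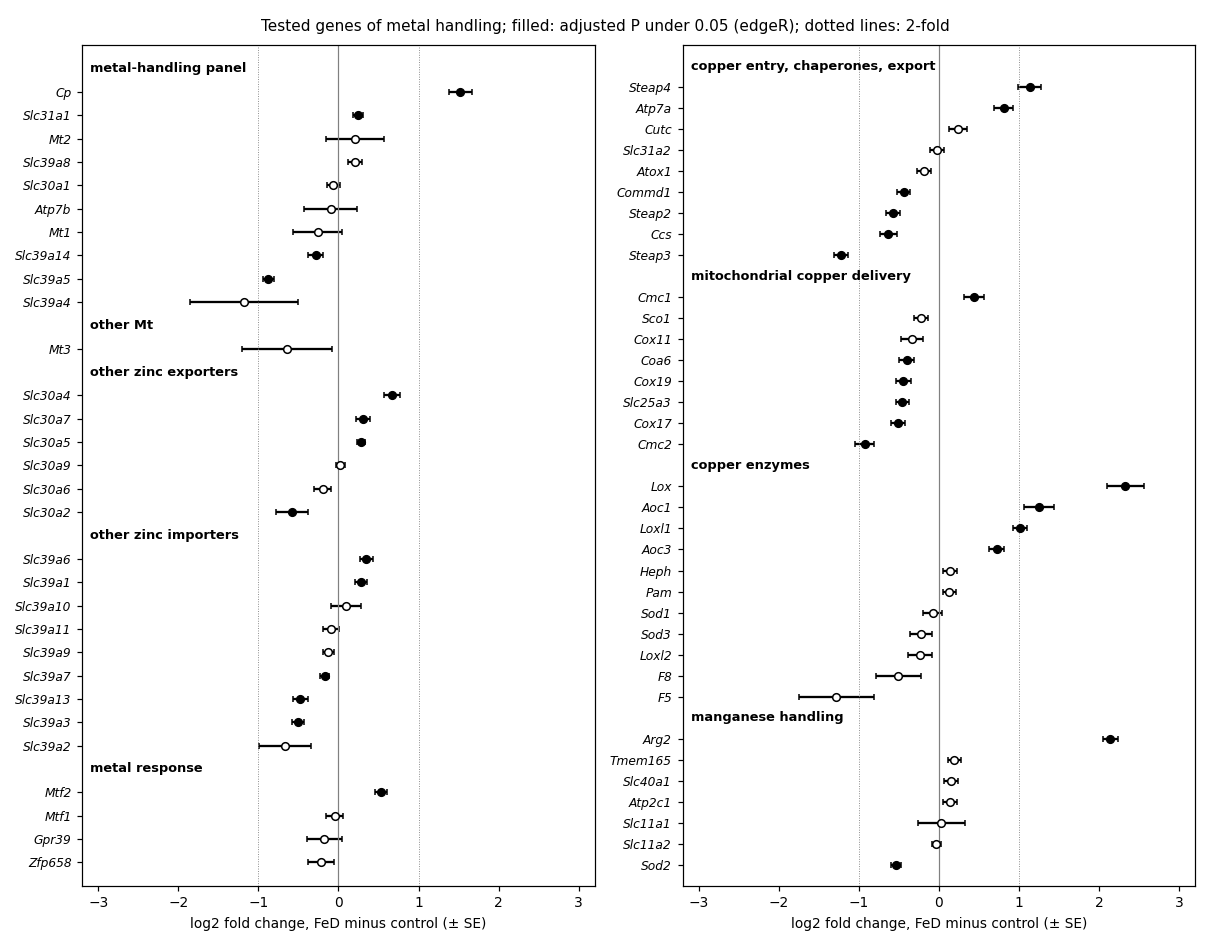
Log2 fold changes (FeD minus control, with standard errors) of all tested genes of metal handling, grouped by role; filled points had an adjusted P under 0.05 and dotted lines mark 2-fold. Filled points beyond the 2-fold line on the right include Cp (1.52), Lox (2.33) and Arg2 (2.14), and Steap3 (-1.22) is the filled point beyond it on the left, where F5 (-1.28) and Slc39a4 (-1.18) are open.

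Zinc importers differed from each other. Slc39a5 (ZIP5) takes up zinc at the basolateral face of epithelial cells. It lies on chromosome 10 from 127832990 to 127838280 (minus strand) and had 2156, 2363 and 2395 normalized counts in control kidneys and 1326, 1181 and 1261 in FeD kidneys. Every FeD kidney was below every control kidney. The fall from 2305 ± 130 to 1256 ± 72.6 (SD, n = 3) had a log2 FC of -0.87 (SE 0.07, edgeR adjusted P = 6.88e-05), and control kidneys were 1.83-fold higher. The 7 proximal tubule markers given above fell too, by amounts that differed between markers. The part of proximal tubule content in the fall of Slc39a5 was not tested, and in whole kidneys fewer cells of a type and less RNA per cell cannot be told apart.

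Slc39a8 and Slc39a14, the importers of zinc, manganese and nontransferrin bound iron, differed little between diets, and only Slc39a14 passed the test. Slc39a8 lies on chromosome 3 from 135488243 to 135551536 (plus strand). Its control kidneys had 1203, 1219 and 1213 normalized counts, and FeD kidneys 1224, 1421 and 1553. The groups did not overlap, although FeD kidney 1 lay just above the highest control kidney. The log2 FC of 0.21 did not pass (SE 0.09, edgeR adjusted P = 0.0842), and it reached 0.31 and passed when FeD kidney 1 was left out (edgeR adjusted P = 0.0106).

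Slc39a14 lies on chromosome 14 from 70703274 to 70751232 (minus strand). It had 541, 544 and 566 normalized counts in control kidneys and 469, 485 and 402 in FeD kidneys. Every FeD kidney was lower. The log2 FC of -0.29 passed narrowly (SE 0.09, edgeR adjusted P = 0.0341). The call was lost with DESeq2 (adjusted P = 0.0505) and in edgeR with any 1 control kidney, FeD kidney 1 or FeD kidney 3 left out (adjusted P = 0.0537 to 0.105, edgeR).

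Slc39a4 (ZIP4), the zinc importer of the intestine, lies on chromosome 15 from 76442815 to 76447322 (minus strand) and was scarce. It had 80.5, 19.9 and 11.6 normalized counts in control kidneys and 20.0, 15.6 and 13.8 in FeD kidneys. Control kidney 1 alone was high, and the other 5 kidneys overlapped. The log2 FC of -1.18 did not pass (SE 0.67, edgeR adjusted P = 0.185) and was 0.077 without control kidney 1. In the same kidney the vesicular zinc exporter Slc30a3 had 31 raw counts, against 1 to 4 in each of the others.

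Of the 9 other tested zinc importers, 2 rose, 3 fell and 4 did not pass, where 22.4% of all tested genes rose and 23.3% fell. Slc39a1, an importer of the cell surface, rose with a log2 FC of 0.28 (edgeR adjusted P = 0.0144), as did Slc39a6, with 0.35. Slc39a3 fell from 795 ± 3.02 to 560 ± 29.6 normalized counts (log2 FC -0.51, edgeR adjusted P = 0.00121). Slc39a13, which moves zinc out of vesicles of the secretory pathway, had a log2 FC of -0.48, and Slc39a7, which releases zinc from the endoplasmic reticulum, of -0.17 (edgeR adjusted P = 0.0404). The call for Slc39a7 held only without FeD kidney 1 among the 6 kidneys left out in turn (adjusted P = 0.0627 to 0.13 for the others, edgeR), and that for Slc39a1 was lost without control kidney 2 (edgeR adjusted P = 0.0709). Slc39a9 fell without FeD kidney 3. None of the other importers changed by 2-fold in edgeR, with or without adjustment of P, or in DESeq2.

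ZnT1, the product of Slc30a1, is the zinc exporter of the cell surface, and its transcription rises with zinc. Slc30a1 lies on chromosome 1 from 193730646 to 193737126 (plus strand); 8.92% of its exon bases overlap 1700034H15Rik on the opposite strand, whose own normalized counts were 63.1 to 114. Slc30a1 had 1448, 1627 and 1520 normalized counts in control kidneys and 1505, 1570 and 1315 in FeD kidneys. The groups overlapped, and the log2 FC of -0.07 was smaller than its standard error of 0.08 (edgeR adjusted P = 0.532). Mtf1, the zinc sensor that activates Slc30a1 and the metallothioneins, also did not pass, at 405 ± 29.4 and 392 ± 44.4 normalized counts (log2 FC -0.05, edgeR adjusted P = 0.749).

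Of the 6 other tested zinc exporters, 3 rose, where 22.4% of all tested genes rose, 1 fell and 2 did not pass. Slc30a4, which carries zinc into endosomes and secretory vesicles, had 735, 733 and 720 normalized counts in control kidneys and 1025, 1142 and 1318 in FeD kidneys, without overlap (log2 FC 0.67, SE 0.10, edgeR adjusted P = 0.00103). Slc30a5 and Slc30a7, which supply zinc to enzymes of the early secretory pathway, had log2 FCs of 0.28 and 0.31. Slc30a2, which also loads vesicles with zinc, fell from 1075 ± 104 to 722 ± 205 normalized counts (log2 FC -0.58, edgeR adjusted P = 0.0416), a call lost without any 1 control kidney (adjusted P = 0.0617 to 0.132, edgeR), as was that of Slc30a7 (adjusted P = 0.0583 to 0.0771, edgeR). FeD kidney 3 was the lowest for Slc30a2, with 485 against 836 and 845 in the other FeD kidneys.

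Mt1 and Mt2 are small cysteine-rich proteins that buffer zinc and copper, and their genes lie side by side on the plus strand of chromosome 8, Mt2 from 96696518 to 96697467 and Mt1 from 96702989 to 96704225. No window of 100 bases of either coding transcript recurred in a coding transcript of another gene. The sequences 250 bases upstream of their RefSeq starts, and of that of Slc30a1, are shown since these genes are known targets of Mtf1, which binds metal response elements. They come from RefSeq promoters (GRCm38.p6) and matched mm9 exactly at chr8:96702739-96702988, chr8:96696268-96696517 and chr1:193730410-193730659, all on the plus strand. Capitals mark the core of the element, searched as TGCACNC or TGCGCNC on both strands.
Mt1: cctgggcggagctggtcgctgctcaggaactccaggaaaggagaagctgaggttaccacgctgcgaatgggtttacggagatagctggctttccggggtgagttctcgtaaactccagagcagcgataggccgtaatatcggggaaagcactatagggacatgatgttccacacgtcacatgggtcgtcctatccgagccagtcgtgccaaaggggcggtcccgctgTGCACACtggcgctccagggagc
Mt2: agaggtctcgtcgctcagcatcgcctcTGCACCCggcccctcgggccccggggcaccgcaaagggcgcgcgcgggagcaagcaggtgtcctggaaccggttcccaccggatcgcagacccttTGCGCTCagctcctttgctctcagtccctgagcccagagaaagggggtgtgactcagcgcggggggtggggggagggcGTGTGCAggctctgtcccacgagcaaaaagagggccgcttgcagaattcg
Slc30a1: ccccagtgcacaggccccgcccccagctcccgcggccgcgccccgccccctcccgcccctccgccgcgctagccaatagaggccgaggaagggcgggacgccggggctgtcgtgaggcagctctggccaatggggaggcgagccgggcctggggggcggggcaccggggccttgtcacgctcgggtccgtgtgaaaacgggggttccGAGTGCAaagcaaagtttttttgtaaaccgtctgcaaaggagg
Within the 250 bases upstream of the listed RefSeq start, 1 core was found for Mt1, 3 for Mt2 and 1 for Slc30a1. Elements elsewhere, downstream of that start included, were not counted. The counts therefore depend on the start listed and do not rank the genes by their number of elements. Among 32851 promoter windows of the same length, 21.4% held at least 1 core and 1.26% at least 3. Slc39a5, Slc39a8 and Atp7b each held 1 core in a window, and Slc31a1 and Cp held none. Of the cores of Mt2, 1 overlaps a match to GCGTG, searched with ACGTG as the core of the hypoxia response element. At least 1 match to that core was held by 38.6% of the promoter windows. The window of Mt1 held 2 matches, and those of Mt2 and Slc30a1 held 1 each. Slc39a5 held 1 and Slc39a8 held 3 in a window, and Slc31a1, Atp7b and Cp held none. A match describes letters and is not evidence of binding.

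The metallothioneins differed more between FeD kidneys than between diets. Mt1 had 3706, 4097 and 4278 normalized counts in control kidneys and 3914, 4552 and 1660 in FeD kidneys. Mt2 had 1111, 1192 and 1301 in control kidneys and 1537, 2070 and 588 in FeD kidneys. FeD kidney 3 was the lowest of all 6 kidneys for both genes, and FeD kidney 2, the kidney with adrenal markers, the highest for both. The part of adrenal tissue in these levels was not tested. The groups therefore overlapped, and neither gene passed (log2 FC -0.26 with standard error 0.31 for Mt1 and 0.21 with standard error 0.36 for Mt2, adjusted P = 0.519 and 0.665, edgeR).

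The coefficient of variation between FeD kidneys was 45.0% for Mt1 and 53.7% for Mt2, against 7.26% and 7.93% between control kidneys. Among 12933 tested genes averaging 50 or more normalized counts, the median between FeD kidneys was 9.78%, and 2.19% of genes varied more than Mt1 and 1.29% more than Mt2. Without FeD kidney 3, Mt2 rose (log2 FC 0.59, SE 0.12, edgeR adjusted P = 0.00446), whereas Mt1 had a log2 FC of 0.083 (edgeR adjusted P = 0.427). Without FeD kidney 2 the log2 FC of Mt2 was -0.16. The direction of both metallothioneins thus depended on single kidneys.

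The balance of Mt1 and Mt2 was then taken within each kidney. Mt2 reads made up 23.1%, 22.5% and 23.3% of all Mt1 and Mt2 reads in control kidneys, with 95% Wilson intervals between 21.4% and 24.4% (counting error only). In FeD kidneys they made up 28.2%, 31.3% and 26.1%, with intervals between 24.5% and 32.5%. Every FeD kidney had a higher share of Mt2 than every control kidney. The means were 23.0% ± 0.397 and 28.5% ± 2.57 (SD, n = 3). The two-sided exact permutation test gave P = 0.1, the smallest value that 3 kidneys against 3 allow. It could therefore not fall under 0.05.

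**Figure D4:**
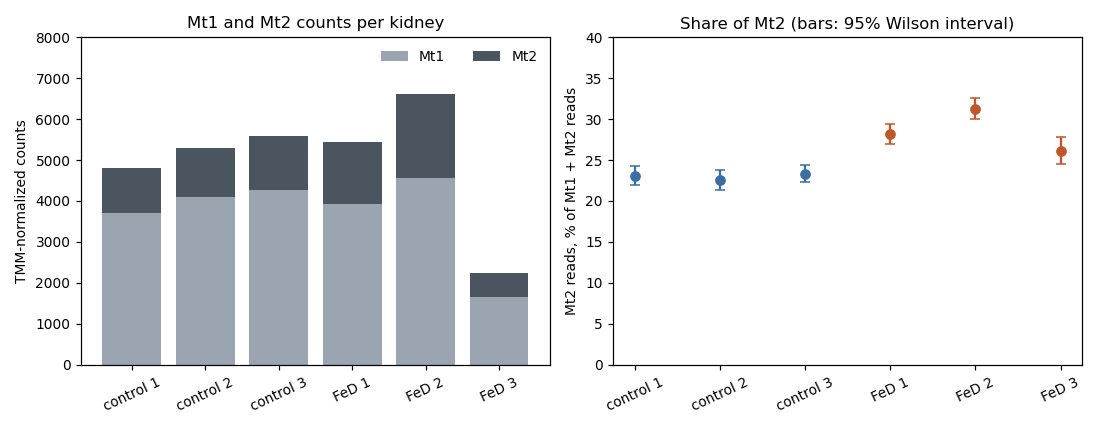
Left, stacked TMM-normalized counts of Mt1 and Mt2 in each kidney; right, Mt2 reads as a percent of Mt1 and Mt2 reads together, with 95% Wilson intervals. FeD kidney 3 had the lowest summed counts (2247), yet its Mt2 share (26.1%) was above the 22.5% to 23.3% of the control kidneys.

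The brain-type metallothionein Mt3 was scarce, with 18.7 to 30.7 normalized counts in control and 4.3 to 29.8 in FeD kidneys, and did not pass (log2 FC -0.64, edgeR adjusted P = 0.385). FeD kidney 3 was the lowest for Mt3 as well. Mt4 had 0 counts in every kidney, where 3 counts correspond to at most 0.218 CPM. Of the remaining genes of metal response and zinc sensing, Mtf2, which is named as a metal response element binding factor and takes part in Polycomb repression, rose with a log2 FC of 0.53 (edgeR adjusted P = 0.0012), and Zfp658 and the zinc receptor Gpr39 did not pass.

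Of 7 tested genes of manganese handling, 1 rose, 1 fell and 5 did not pass, where 22.4% of all tested genes rose and 23.3% fell. The rise was that of Arg2, the mitochondrial arginase, an enzyme with manganese at its active site. Arg2 had 471, 474 and 486 normalized counts in control kidneys and 1925, 1979 and 2400 in FeD kidneys. The groups were far apart, and the 4.41-fold rise had a log2 FC of 2.14 (SE 0.09, edgeR adjusted P = 8.86e-06). Sod2, the manganese superoxide dismutase of mitochondria, fell from 4830 ± 212 to 3317 ± 73.1 normalized counts (log2 FC -0.54, edgeR adjusted P = 0.000354).

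Of the carriers on this list, 5 were tested and did not pass. Slc11a2 (DMT1), which carries iron and manganese, had 1882 ± 66.3 and 1841 ± 43.3 normalized counts (log2 FC -0.03, SE 0.06, edgeR adjusted P = 0.672). Slc40a1 (ferroportin), an exporter of iron and manganese, had 2077 ± 215 and 2311 ± 153 (log2 FC 0.15, standard error 0.09). The Golgi pump Atp2c1 had a log2 FC of 0.14 and Tmem165 of 0.19 (edgeR adjusted P = 0.0663), which passed without FeD kidney 2 (edgeR adjusted P = 0.0358). Slc30a10, the manganese exporter of liver and brain, had 1, 2 and 3 raw counts in control kidneys and 4, 10 and 10 in FeD kidneys. It was removed by the filter for low counts and was not tested.

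The calls of 23 of the 28 partner genes held with each kidney left out in turn. Over the 8 lists of further metal genes, which hold 62 genes of the tables, 55 genes were tested, 14 rose and 14 fell. Kidneys of the groups did not overlap for 35 of the 55 genes, and the median log2 FC was -0.09. Over all tested genes 22.4% rose, 23.3% fell and 58.1% did not overlap, so these counts were near those of the whole table. At least 2-fold higher were 5 genes, 4 copper enzymes or reductases (Lox, Loxl1, Aoc1 and Steap4) and Arg2, and 1 gene, Steap3, was at least 2-fold lower. Among all tested genes 4.34% were higher and 5.69% lower at this threshold.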

How the data were processed

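Poly-A RNA of 6 kidneys was sequenced from TruSeq libraries. Per the labels, the authors used CASAVA 1.8.2, Trimmomatic and TopHat2 2.0.11 on mm9, and deposited raw HTSeq counts of reads per gene symbol, without normalization or pooling. The gene annotation, counting mode and strand setting are not given in the sources used here, so how reads of overlapping genes were counted is not known.

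Counts of 24422 genes, 13732173 to 20853293 per kidney, went into edgeR 4.0.16 under R 4.3.3 (filterByExpr, TMM, glmQLFit, glmQLFTest). P values were adjusted by Benjamini-Hochberg over 15145 genes, at a threshold of 0.05, without and with a 2-fold change. The standard error is the log2 fold change divided by the square root of F. Groups and kidney numbers came from the sample titles. Pairs of kidneys of a group had a chi-square per degree of freedom of 3.77 to 30.4, so none was a copy of another. On simulated counts edgeR recovered 198 of 200 genes simulated with a log2 change of 2, with 10 false calls (15300 genes tested), and DESeq2 1.42.0 recovered 194. Every gene was simulated with the same dispersion and smaller changes were not simulated, so the recovery of smaller changes was not tested. Positions and exon lengths (union over transcripts) came from the GENCODE annotation of mm9. Promoters came from a RefSeq table, which held 8 of the 10 genes, and no entry was found for Slc39a4 and Slc39a14. Named genes were the 10 genes, the genes of hand-made lists of metal handling and cell markers, and the 3 genes most like Cp. The members and lists were chosen with earlier results of these data known. Alternatives were DESeq2's size factors, library size alone, no filter, at least 10 counts in every sample, DESeq2, the kidney number as a block, and each kidney left out. Leaving out kidneys for the listed genes was chosen after seeing the data. The share of Mt2 and its permutation test were not among the planned results.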

Additional observations from a re-analysis of the deposited data

How the results depend on the processing

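Under the 12 alternatives, 106 of the 120 log2 fold changes of the 10 genes kept their direction and their side of the threshold. The calls for Cp (log2 fold change 1.37 to 1.69), Slc39a5 (-0.92 to -0.81) and Slc31a1 (0.24 to 0.28) passed in all 12. With a kidney left out, directions reversed for genes that had not passed: log2 fold changes ranged from -0.51 to 0.083 for Mt1 (positive without FeD replicate 3), from -0.16 to 0.59 for Mt2 (negative without FeD replicate 2), from -0.11 to 0.018 for Slc30a1 (positive without FeD replicate 3), from -1.62 to 0.077 for Slc39a4 (positive without control replicate 1) and from -0.26 to 0.18 for Atp7b (positive without control replicate 2). Mt2 passed only without FeD kidney 3 and Slc39a8 only without FeD kidney 1. Slc39a14 lost its call in 7 of 12.

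The number of the 10 genes lower at an adjusted P under 0.05 was 1 in place of 2 with DESeq2 and with the replicate block, and ranged from 1 to 2 with a kidney left out. Lower genes of the copper enzyme list numbered 1 with DESeq2, 2 with the replicate block and 0 to 3 with a kidney left out, in place of 0. Manganese genes higher numbered 2 with at least 10 counts in every sample and 1 to 2 with a kidney left out, in place of 1. With a kidney left out, zinc exporters lower ranged from 0 to 1, zinc importers higher from 1 to 2, and mitochondrial copper genes higher from 0 to 1. The cause was not tested. The replicate block changed, of the 10 genes, only the call for Slc39a14 (log2 fold change -0.29, adjusted P = 0.052, edgeR). The kidneys share only a number: deviations of equally numbered kidneys correlated at -0.16, 0.01 and -0.04, and pups of equal number had different dams. For Atp7b, Slc39a4 and Slc30a10, depth limits what can be detected.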
